A study of Mus musculus with 39 samples.

Results

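The genes described here are those of asparagine and serine synthesis, of mitochondrial folate metabolism and of the ATF4 stress response in mouse B-lineage cells and MLL-AF4 leukemia. They were chosen by symbol as a list of 10 genes (Asns, Cth, Psat1, Phgdh, Psph, Shmt2, Mthfd2, Atf4, Trib3 and Ddit3), and all 10 were measured, by 22 probe sets, among the 12393 genes measured in all. The list was drawn up with earlier results of these arrays in view, in which Asns and Cth already stood out between leukemic and normal cells. The differences of the 10 genes between leukemic and normal cells are therefore given as a description, without a test.

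Asparagine synthetase, encoded by Asns, makes asparagine from aspartate and glutamine, and leukemic lymphoblasts that make little of it are sensitive to asparaginase, a drug that removes asparagine from the blood. Serine is made from a glycolytic intermediate in consecutive steps by Phgdh, Psat1 and Psph, and Shmt2 and Mthfd2 pass its carbon into the mitochondrial folate pool. When amino acids run short or the endoplasmic reticulum is stressed, phosphorylation of eIF2 favours translation of Atf4, a transcription factor whose known targets include Asns, the serine and folate genes, Cth, Trib3 and Ddit3 (CHOP).

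Total RNA from flow-sorted bone marrow cells was amplified and hybridized to Affymetrix arrays, 1 array per sample and 39 arrays in all. Normal adult mice gave pro-B cells (B220+ CD43+ IgM- IgD-, 6 arrays), pre-B cells (B220+ CD43- IgM- IgD-, 8 arrays), immature B cells (B220+ CD43- IgM+ IgD-, 6 arrays) and mature B cells (B220+ CD43- IgM+ IgD+, 3 arrays). Leukemic cells (16 arrays) passed the same gate as the normal pre-B cells. For 5 of them the mouse was leukemic after pIpC, a synthetic double-stranded RNA, and for the other 11 no pIpC is stated. The series title names MLL-AF4, but only the description of leukemic array 116 names an allele, a Mll-AF4stop knock-in, and that description does not state leukemia. The labels give no strain, Cre driver or age beyond adult for the normal mice. They do not say that the arrays of a group came from separate animals, so p-values measure the spread between these arrays. Levels are log2 of the deposited RMA intensities, with 1 probe set per gene, and levels of different genes cannot be set against each other.

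Some arrays stood apart. Leukemic array 122 had a mean of 7.37 over 9 B-lineage markers, against 9.94 to 10.8 in the other leukemic arrays, and its nearest array was pro-B 2. Leukemic array 226 was least like the mean of the other leukemic arrays (r = 0.926, against 0.938 for 122), and its nearest array was pre-B 7. The nearest array of leukemic array 15 was pre-B 4. Leukemic arrays A46 and 17 had a Kmt2a level of 6.52 and 6.44, against 9.55 to 10.4 in the other 14 leukemic arrays and at least 10.6 in every normal array. They were nearest to each other (r = 0.984 over all genes), but so were 227 and 228 (r = 0.984) and A1322 and A1507 (r = 0.979). The accessions fall into 2 runs of 22 and 17 arrays, which the labels do not call batches. The 3′ minus 5′ actin signal, a sign of RNA quality and labelling, was 1.29 ± 0.08 (SD, n = 22) on the log2 scale in run 1 and 0.80 ± 0.14 (SD, n = 17) in run 2. All 3 mature B arrays and 4 of the 16 leukemic arrays were in run 2. Mean marker levels differed between groups. Over 9 T and NK cell markers they ran from 8.23 to 9.66 in pro-B arrays, 5.62 to 6.30 in pre-B arrays and 4.55 to 7.46 in leukemic arrays. Over 11 myeloid markers the ranges were 9.80 to 10.4, 7.69 to 9.75 and 5.33 to 9.74. Over 11 proliferation genes they were 10.1 to 11.4, 10.7 to 11.4 and 9.94 to 11.2, with 8.70 to 9.86 in immature and 8.54 to 9.54 in mature B arrays. The part of other cells in the results below was not tested.

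ATF4 is known to bind, with C/EBP partners, a composite element whose core was searched as TGATGNAA on both strands. RefSeq's promoter table (GRCm38.p6, 250 bases before to 50 after each start) held 9 of the 10 genes and lacked Cth. The core was present in 2 of these 9 genes, Asns and Trib3, in 16 of 90 promoters of the related pathway genes described below (17.8%) and in 1304 of all 32851 promoters (3.97%). The E-box core CACGTG, searched the same way, was in none of the 9 genes and in 7.15% of all promoters. The stretches shown hold the match in Asns and Trib3 and in the non-member genes Slc1a4, whose level followed Asns most closely in leukemic arrays, Slc7a11 (cystine transporter) and Chac1 (glutathione breakdown). Capitals mark the match on either strand. Slc7a11 holds a pair of matches. The stretches are Asns chr6:7693210-7693289 (minus strand, bases -80 to -1 from the start), Slc1a4 chr11:20332710-20332773 (minus strand, -60 to 4), Slc7a11 chr3:50443624-50443703 (minus strand, -90 to -11), Chac1 chr2:119351022-119351101 (plus strand, -220 to -141) and Trib3 chr2:152344028-152344057 (minus strand, 4 to 33).
Asns: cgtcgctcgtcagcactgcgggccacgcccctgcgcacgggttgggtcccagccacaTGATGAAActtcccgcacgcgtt
Slc1a4: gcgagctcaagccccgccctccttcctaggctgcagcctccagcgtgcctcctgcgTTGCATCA
Slc7a11: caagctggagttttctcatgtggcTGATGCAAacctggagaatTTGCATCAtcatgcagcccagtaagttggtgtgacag
Chac1: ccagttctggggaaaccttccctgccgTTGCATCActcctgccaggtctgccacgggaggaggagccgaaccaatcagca
Trib3: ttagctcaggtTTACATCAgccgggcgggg

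Leukemic cells had more Asns, Cth and Shmt2 mRNA than normal pre-B cells, by 2.94, 2.06 and 2.01 on the log2 scale. The serine synthesis genes Psph, Psat1 and Phgdh differed less, by 0.86, 0.55 and 0.33, and the means of Atf4 and Ddit3 by -0.13 and -0.31. Against pro-B cells Cth differed most (2.67), then Asns (1.56) and Shmt2 (0.87). By adjusted p under 0.05 (limma), 5 of the 10 genes were higher than in pre-B cells, against 8.50% of all genes, and 0 were lower, against 7.53%. The corresponding counts against pro-B cells were 5 higher, against 8.11% of all genes, and 0 lower, against 7.63%. In 2 of the 10 genes (Asns and Shmt2) every leukemic array lay above every pre-B array, as in 0.750% of all genes, and in 1 gene (Cth) every leukemic array lay above every pro-B array, as in 0.412%. Nothing is read from these counts, since the choice of the genes used the same arrays. The median difference of the 10 genes was 0.71 against pre-B and 0.52 against pro-B cells, beside medians of -0.007 and 0.13 over all genes. In sorted bulk samples, fewer cells of a type and less RNA per cell cannot be told apart.

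**Figure D1:**
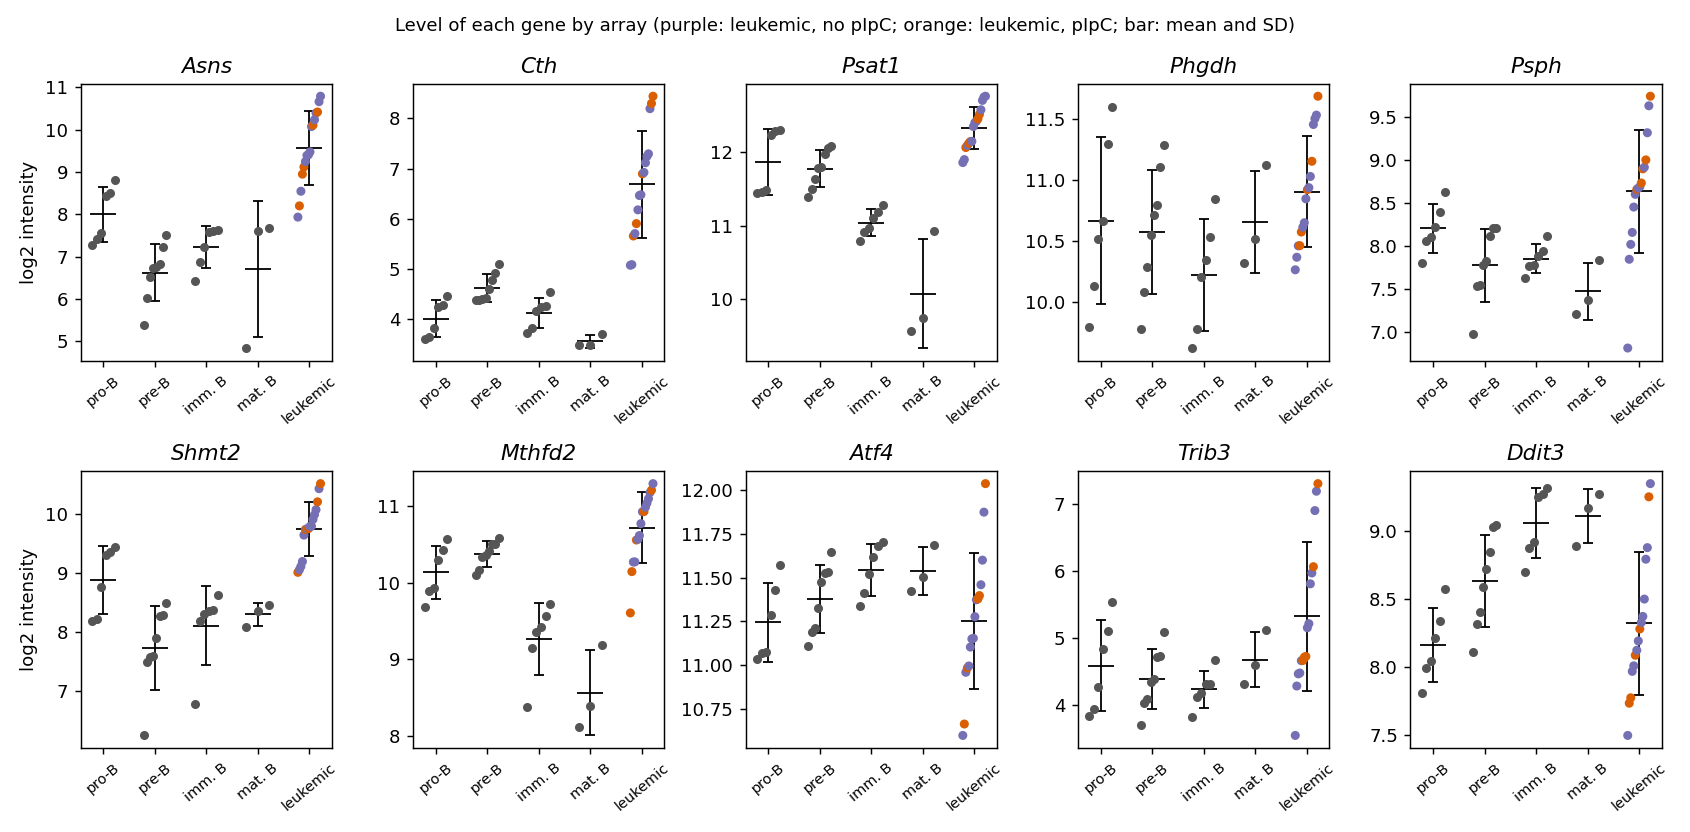
Level of the 10 genes (vertical axes, log2 intensity, a separate scale for each gene) in each array of the 4 normal stages and the leukemic group. Points are single arrays placed in order of level within a group, and bars give the mean and SD. The leukemic Asns values, 7.93 to 10.8, all lie above the pre-B values, while the Atf4 and Ddit3 values overlap those of the pre-B arrays.

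Asns was highest in leukemic cells. Its level was 7.93 in the lowest (224), 9.44 in the median and 10.79 in the highest (153) of the 16 leukemic arrays, with a mean of 9.56 ± 0.87 (SD, n = 16). In pre-B cells it was 5.37 in the lowest, 6.74 in the median and 7.51 in the highest array, with a mean of 6.62 ± 0.67 (SD, n = 8). Pro-B cells had the highest normal mean, 8.0 ± 0.66 (SD, n = 6), with a range of 7.27 to 8.80. Immature B cells lay at 6.41 to 7.62, and the 3 mature B arrays at 7.67, 4.84 and 7.59. Thus all 16 leukemic arrays lay above all pre-B, immature B and mature B arrays, and 13 of 16 lay above all pro-B arrays. The leukemic mean exceeded the pre-B mean by 2.94 (SE 0.33), a 7.68-fold difference, and the pro-B mean by 1.56 (SE 0.37), or 2.96-fold. The pre-B difference was 2.79 within run 1 and 3.12 within run 2, and the second Asns probe set gave 2.76.

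Cth encodes cystathionine gamma-lyase, the last enzyme in making cysteine from methionine. Its normal levels were near the dim limit of 4.14, the 25th percentile of all log2 values, so folds over the normal cells may be understated. Leukemic arrays ran from 5.08 (122) over a median of 6.69 to 8.44 (A46), with a mean of 6.69 ± 1.07 (SD, n = 16). Pre-B arrays ran from 4.39 over 4.51 to 5.10, and pro-B arrays from 3.60 over 4.04 to 4.46. Every leukemic array lay above every pro-B array, and 14 of 16 lay above every pre-B array, the exceptions being 117 and 122. The difference was 2.06 (SE 0.37) from pre-B and 2.67 (SE 0.43) from pro-B cells. It depended on the run: the pre-B difference was 1.74 within run 1 and 3.15 within run 2. The highest 3 leukemic values, 8.44, 8.30 and 8.19, belonged to A46, 270 and 17, all of run 2. Without A46 and 17 the difference was 1.82.

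Of the serine synthesis genes, Psat1 (phosphoserine aminotransferase) was the most uniform in leukemic cells. Its leukemic level ran from 11.86 over a median of 12.38 to 12.77, against 11.39, 11.79 and 12.09 in pre-B and 11.44, 11.86 and 12.30 in pro-B arrays. The leukemic mean was higher by 0.55 (SE 0.12) and 0.46 (SE 0.15), with 13 and 9 of 16 leukemic arrays above every array of the normal group.

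Psph (phosphoserine phosphatase, the last step) ran from 6.81 (116) over 8.68 to 9.74 (A46) in leukemic arrays and from 6.97 over 7.80 to 8.21 in pre-B arrays. The difference was 0.86 (SE 0.26), and array 116 lay below every pre-B array while 12 leukemic arrays lay above them all. Against pro-B cells, at 7.80 to 8.63, it was 0.43 (SE 0.29).

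Phgdh (phosphoglycerate dehydrogenase, the first step) showed the smallest differences of the serine genes over all arrays. Leukemic arrays ran from 10.26 over 10.88 to 11.69 and pre-B arrays from 9.77 over 10.63 to 11.29, so the groups overlapped, with a difference of 0.33 (SE 0.19). The pre-B difference was 0.40 within run 1 and 0.63 within run 2. Against pro-B cells within run 1 the order did not hold, with 0.57 for Phgdh, 0.52 for Psat1 and 0.41 for Psph. The 4 Phgdh probe sets gave 0.33 to 0.92, and all are of a type that can share probes with other transcripts, so the Phgdh values are uncertain.

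**Figure D2:**
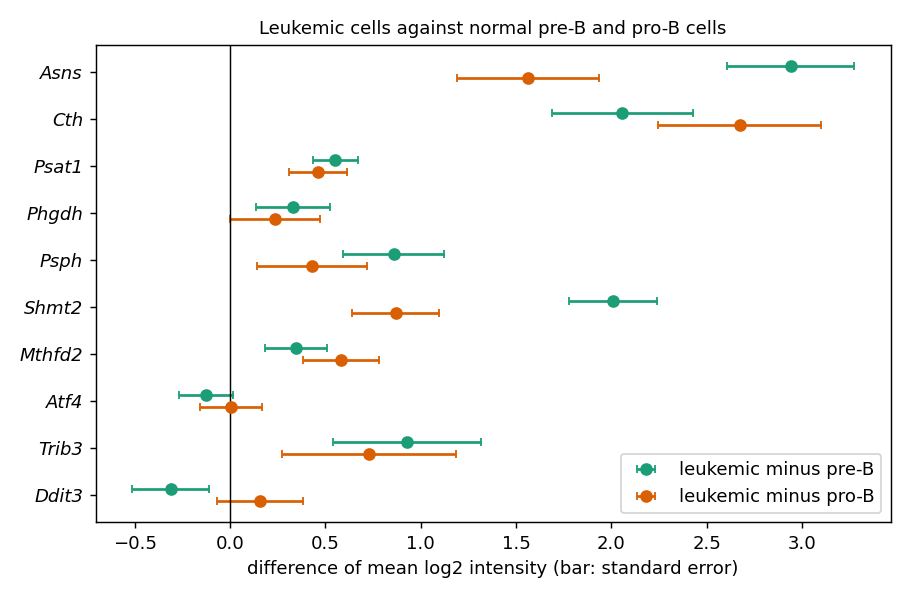
Difference of mean log2 intensity (horizontal axis) between leukemic cells and pre-B cells (green) or pro-B cells (orange) for each gene, with the standard error as bars. Asns (2.94 and 1.56), Cth (2.06 and 2.67) and Shmt2 (2.01 and 0.87) lie farthest to the right, and Atf4 (-0.13 and 0.01) lies at 0.

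Shmt2 moves the serine carbon to folate in mitochondria. Its leukemic level ran from 9.01 (A992) over 9.77 to 10.51 (A46), against 6.25, 7.75 and 8.50 in pre-B arrays and 8.18, 9.03 and 9.44 in pro-B arrays. With the probe set used, no leukemic array overlapped the pre-B arrays, and 12 of 16 lay above all pro-B arrays. That probe set is of the type that can share probes with other transcripts. In the Shmt2 probe set not of that type the groups overlapped, with the lowest leukemic array at 8.21 and the highest pre-B array at 8.47. Another overlapped too (6.77 and 6.86), and the remaining one did not (8.11 and 7.79). The difference was 2.01 (SE 0.23) from pre-B cells, a 4.03-fold difference, with 1.24 to 2.01 over its 4 probe sets. It was 2.13 within run 1 and 2.11 within run 2. From pro-B cells it was 0.87 (SE 0.23).

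Mthfd2, the enzyme after Shmt2 in mitochondria, was already high in pre-B cells. Leukemic arrays ran from 9.60 (A992) over 10.85 to 11.29 (17), pre-B arrays from 10.09 over 10.39 to 10.58, and pro-B arrays from 9.68 over 10.11 to 10.57. The leukemic mean was higher by 0.35 (SE 0.16) than the pre-B mean and by 0.58 (SE 0.20) than the pro-B mean, and A992 lay below every array of both.

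Atf4 itself did not stand out at the level of mRNA. It ran from 10.60 (117) over 11.22 to 12.03 (A46) in leukemic arrays and from 11.11 over 11.40 to 11.64 in pre-B arrays. Of the leukemic arrays, 6 lay below and 2 above all pre-B arrays. The difference was -0.13 (SE 0.14) from pre-B and 0.01 (SE 0.16) from pro-B cells. Its sign changed with the setting: the pre-B difference was 0.15 within run 2, and the pro-B difference was -0.09 without A46 and 17. Over the 3 Atf4 probe sets it was -0.13 to 0.06 from pre-B and 0.01 to 0.31 from pro-B cells. The activity of Atf4 is regulated at translation, which these arrays do not measure.

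Ddit3 (CHOP, a stress-induced transcription factor) was not higher in leukemic than in pre-B cells. It ran from 7.50 (224) over 8.24 to 9.35 (153) in leukemic arrays and from 8.11 over 8.65 to 9.05 in pre-B arrays, a difference of -0.31 (SE 0.20), with 6 leukemic arrays below and 2 (153 and A46) above all pre-B arrays. Against pro-B cells the difference was 0.16 (SE 0.23).

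Trib3, a pseudokinase induced by ATF4 and CHOP, was near the dim limit in most arrays. Normal arrays ran from 3.70 to 5.54. Leukemic arrays ran from 3.55 (224) over a median of 4.94 to 7.30 (A46), and 3 of them, A46, 17 and 153, reached 7.30, 7.18 and 6.90. The pre-B difference was 0.93 (SE 0.39), or 0.66 without A46 and 17. Of the 16 leukemic arrays, 8 lay above every pre-B array and the others lay among them or below.

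**Figure D3:**
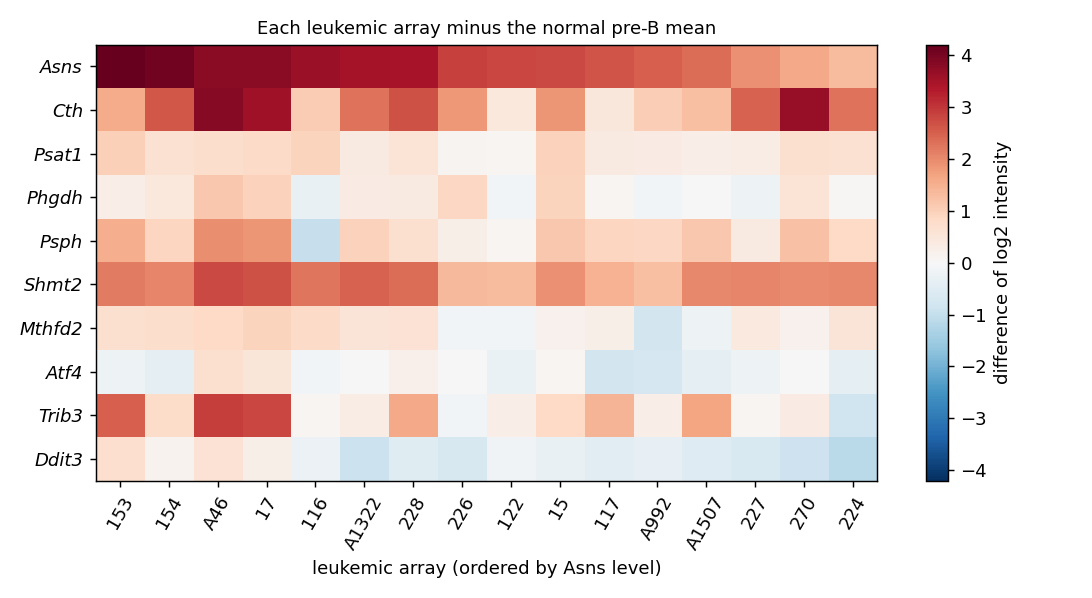
Each leukemic array minus the normal pre-B mean (colour, difference of log2 intensity, red higher and blue lower) for the 10 genes, with arrays ordered by their Asns level. Asns runs from 4.17 in array 153 to 1.31 in array 224, and arrays A46 and 17 are red for all 10 genes.

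The leukemic arrays differed from one another more in some of these genes than in others. The SD over 16 arrays was 1.10 for Trib3, 1.07 for Cth and 0.87 for Asns, but 0.29 for Psat1 and 0.39 for Atf4. Array A46 had the highest level of 6 of the 10 genes (Cth, Phgdh, Psph, Shmt2, Atf4 and Trib3) and was among the highest 3 for 9 of them. Array 17 was among the highest 3 for 8, with the highest Mthfd2. These are the 2 arrays with the lowest Kmt2a, one from a mouse given pIpC and one with no pIpC stated, and both of run 2, so what distinguishes them cannot be told apart here. Array 153 had the highest Asns, Psat1 and Ddit3. Array 224 had the lowest Asns, Trib3 and Ddit3, yet its Cth (6.92) and Mthfd2 (10.93) were above the leukemic medians. Array 122, with low B-lineage markers, was among the lowest 3 for 6 genes, and its Asns was 9.41.

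Asns was set against each of the other 9 genes over the 16 leukemic arrays, a relation that the choice of the genes did not use. It followed Ddit3: Pearson's r was 0.76 and Spearman's rho 0.74, with adjusted p = 0.0045 and 0.0125 (two-sided permutation tests, 100000 resamples, 9 relations). Without arrays 153 and 224, the 2 farthest from the median of Asns, r was 0.64. It was 0.71 within the 12 arrays of run 1, and run 2 held too few leukemic arrays (4). Without A46 and 17 it was 0.73. Ddit3 thus varied with Asns among leukemic arrays although its leukemic mean was not above the pre-B mean.

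The relation of Asns with Trib3 (r = 0.61, rho = 0.50) did not pass the adjusted threshold in the permutation test (adjusted p = 0.0549 for r and 0.119 for rho), and r fell to 0.42 without arrays 153 and 224. For Mthfd2 r was 0.51 (permutation test, adjusted p = 0.125) and rho 0.70 (adjusted p = 0.0165), so ranks and levels gave different calls. Its r was 0.65 without arrays 153 and 224 and 0.43 within run 1. For Shmt2, Psat1, Atf4, Phgdh and Psph r was 0.44, 0.38, 0.38, 0.32 and 0.15, and none passed. Cth, the other gene far above the normal level, did not follow Asns (r = 0.09, permutation test, adjusted p = 0.742): array 270 had 8.20 for Asns and 8.30 for Cth, while array 153 had 10.79 and 6.18.

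**Figure D4:**
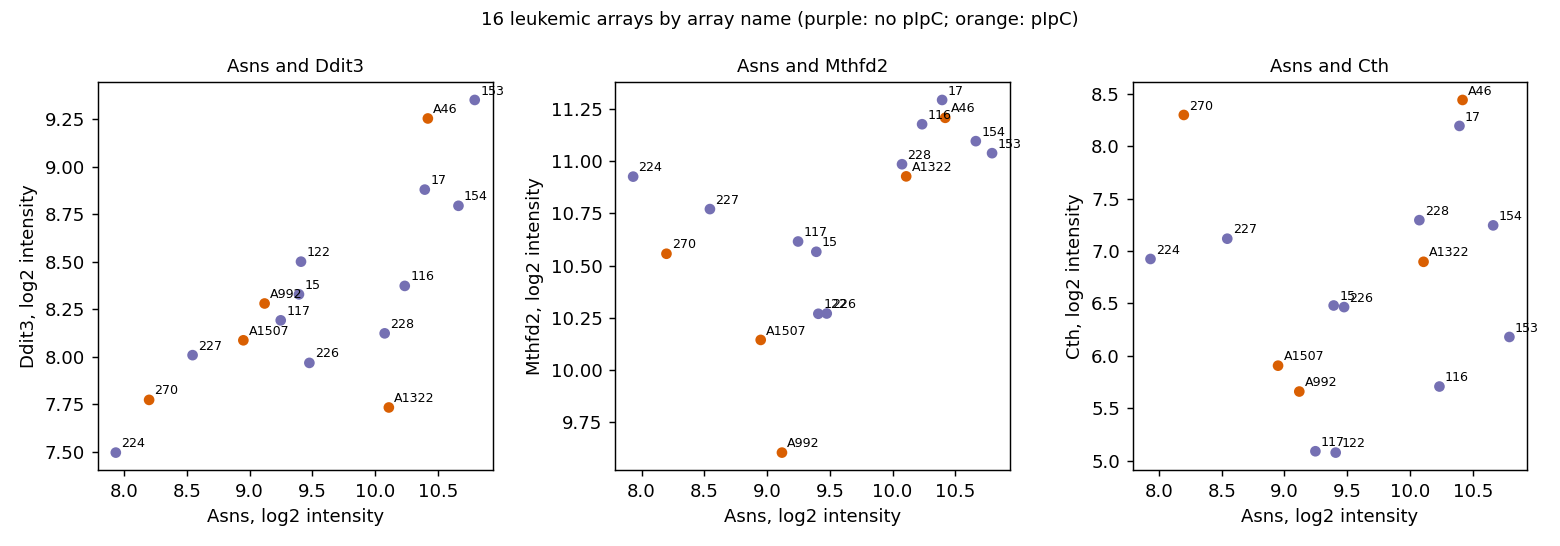
Level of Ddit3, Mthfd2 and Cth (vertical axes) against Asns (horizontal axes) in the 16 leukemic arrays, all in log2 intensity, with the array name beside each point and pIpC arrays in orange. Ddit3 rises with Asns (r = 0.76), and Cth does not (r = 0.09).

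Among 7435 genes above the 40th percentile of mean level, those whose level was most like Asns over the 16 leukemic arrays were Slc1a4 (r = 0.79), an exchanger of small neutral amino acids, Ddit3 (0.76), Ephx1 (0.71), an epoxide hydrolase, Slamf9 (0.67) and Zc3h8 (0.67). Over all 39 arrays they were Sdad1 (0.86), Cad (0.86), which starts pyrimidine synthesis, Ssbp4 (0.85), Slc35d1 (0.84) and Shmt2 (0.83). Over all 39 arrays the points share the normal and leukemic groups, and Ddit3 had r = -0.17. These correlations are a description and carry no test.

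Within normal development Asns and Shmt2 fell from the pro-B to the pre-B stage, while Cth and Ddit3 rose. Asns fell by 1.38 (SE 0.39, limma adjusted p = 0.0105), with 7 of 8 pre-B arrays below every pro-B array. Shmt2 fell by 1.14 (SE 0.31, limma adjusted p = 0.00817). Cth rose by 0.62 (SE 0.17, limma adjusted p = 0.00711), from one value near the dim limit to another, and Ddit3 by 0.47 (SE 0.16, limma adjusted p = 0.0269). So 2 of 10 genes were called higher, against 17.9% of all genes, and 2 lower, against 15.7%, shares close to those of all genes. Psph differed by -0.43 (limma adjusted p = 0.065), and Mthfd2, Atf4, Psat1, Phgdh and Trib3 by 0.24, 0.13, -0.09, -0.09 and -0.20, without passing.

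With accession run as a covariate Asns, Shmt2, Cth and Ddit3 kept their calls (limma adjusted p = 0.00877, 0.00479, 0.00375 and 0.000835). Psph was then called lower as well (limma adjusted p = 0.0117). With only the arrays of 1 run, which leaves fewer arrays, several of the calls for Asns, Shmt2, Cth and Ddit3 were lost, while their differences kept their sign. Asns differed by -1.07 within run 1 (limma adjusted p = 0.0871) and -1.69 within run 2 (adjusted p = 0.087), Shmt2 by -1.28 within run 1 (adjusted p = 0.108), Ddit3 by 0.44 within run 1 (adjusted p = 0.0935) and Cth by 0.52 within run 2 (adjusted p = 0.151). The call for Ddit3 was also lost without pro-B array 5 or 6 or pre-B array 1 or 3. With all 39 arrays in 1 fit the calls for Cth (limma adjusted p = 0.237) and Ddit3 (adjusted p = 0.115) were lost, and that for Cth also after quantile normalization (difference 0.42, adjusted p = 0.0851). Beside this step, 8 of 9 T and NK cell markers and 5 of 6 plasmacytoid dendritic cell markers fell, with median differences of -3.41 and -3.19.

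From the pre-B to the immature B stage the largest change was in Mthfd2, which fell by 1.11 (SE 0.19, limma adjusted p = 9.77e-05), to 9.26 ± 0.48 (SD, n = 6). All 6 immature B arrays lay below all pre-B arrays, a separation whose share over all genes was not counted at this step. Psat1 fell by 0.74 (SE 0.19, limma adjusted p = 0.00608), again with no overlap, and Cth by 0.50 (SE 0.17, limma adjusted p = 0.0337), a call lost without any one of pre-B arrays 1, 4 and 5 or immature B arrays 2, 5 and 6, within either run, after quantile normalization and with all 39 arrays in 1 fit. Within run 2 alone Psat1 differed by -0.73 (limma adjusted p = 0.121). None of the 10 genes was called higher, against 10.9% of all genes, and 3 were called lower, against 8.70%. Asns differed by 0.60 (limma adjusted p = 0.319) and Ddit3 by 0.43 (limma adjusted p = 0.0609). With accession run as a covariate Ddit3 and Atf4 were called higher, by 0.43 and 0.17 (limma adjusted p = 0.00241 and 0.0235). The Atf4 probe sets ranged from -0.26 to 0.17 at this step. All 11 proliferation genes fell at this step, with a median difference of -1.52. The part of that fall in the Mthfd2 and Psat1 values was not tested.

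From the immature to the mature B stage Psat1 fell by a further 0.97 (SE 0.25, limma adjusted p = 0.02), with mature B arrays at 9.56, 10.93 and 9.74. The call rested on mature B arrays 1 and 3, as it was lost without either. It was also lost within run 2 (limma adjusted p = 0.111) and with the mean of both Psat1 probe sets (difference -0.82, adjusted p = 0.0523). It was the 1 gene of 10 called lower, against 3.29% of all genes, and 0 were called higher, against 1.96%. Mthfd2 differed by -0.70 (limma adjusted p = 0.109), and was called without immature B array 4 or mature B array 2. Asns could not be placed at this stage, since mature B array 2 was at 4.84 and the other two at 7.67 and 7.59 (difference -0.52, limma adjusted p = 0.701). Over the 4 normal stages Psat1 and Mthfd2 were thus highest in pro-B and pre-B cells, Asns and Shmt2 had their highest mean in pro-B cells, and Atf4 stayed between 11.24 and 11.55 as group means.

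Leukemic cells from mice given pIpC did not differ detectably from the others in these genes. Asns was 9.36 ± 0.90 (SD, n = 5) with pIpC and 9.65 ± 0.89 (SD, n = 11) with no pIpC stated. Cth was 7.04 ± 1.30 and 6.52 ± 0.97, and its difference was -0.19 within run 1 and 1.03 within run 2. Psph differed most, at 9.0 ± 0.43 and 8.46 ± 0.76, a difference of 0.54 (SE 0.35, limma adjusted p = 0.933). None of the 10 genes passed in either direction, as for all genes (0% higher and 0% lower). At an unadjusted p under 0.05 in limma, 0 of the 10 and 603 of all 12393 genes passed.

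The related genes were taken from 8 lists of the same pathways, of which 95 of 116 genes were measured. They were taken as members of those pathways and tested in the fit over all genes. The lists were chosen with earlier results of these data known, so their counts and p-values are not independent support. Against pre-B cells 23 rose and 6 fell in leukemic cells, with a median difference of 0.24, against -0.007 over all genes. Over all genes 8.50% were called higher and 7.53% lower, so the share of pathway genes that fell was near the background. Against pro-B cells 5 rose and 8 fell, with a median of 0.19, against 0.13 over all genes. There 8.11% of all genes were called higher and 7.63% lower, so both pathway shares were near the background. These 13 calls became 32 with accession run as a covariate, 2 within run 1 and 7 within run 2. Of the 23 genes that rose against pre-B cells, 16 were tRNA synthetases or folate genes and 1 was a general ATF4 target. Several calls against pro-B cells rested on single arrays: those of Shmt1, Mthfd1, Eif4ebp1 and Ppp1r15a were lost without pro-B array 2, 4 or 6, that of Ppp1r15a also without pro-B array 3, that of Mthfd1 also without A46 and 17, and that of Creld2 without pro-B array 2.

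**Figure D5:**
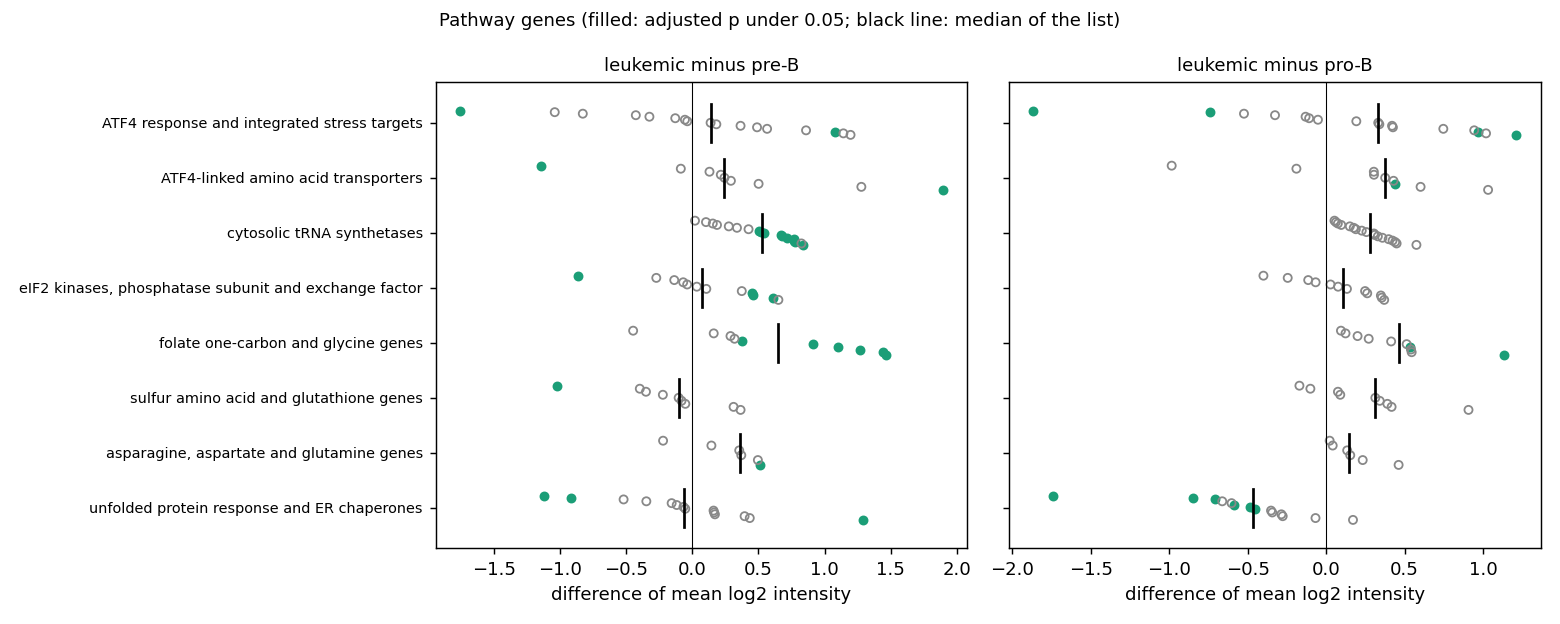
Difference of mean log2 intensity (horizontal axes) between leukemic and pre-B cells (left) or pro-B cells (right) for each measured gene of the 8 lists. Filled points passed an adjusted p of 0.05 and black lines give the list medians. All 18 tRNA synthetases lie above 0 in both panels, and 10 and 0 of them passed.

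Of 18 measured cytosolic tRNA synthetases, which load amino acids onto tRNA, 10 rose against pre-B cells and 0 fell, with a median of 0.53. Gars rose by 0.84 (SE 0.17, limma adjusted p = 0.00103), Eprs by 0.77 (SE 0.24, limma adjusted p = 0.0292) and Farsb by 0.77 (SE 0.15, limma adjusted p = 0.000609). The Eprs call was lost without pre-B array 1, 6, 7 or 8 or without A46 and 17. Against pro-B cells all 18 were above 0, with a median of 0.28, against 0.13 over all genes, but 0 passed. From normal pro-B to pre-B cells the median difference of the 18 was -0.29, against 0.11 over all genes. Hars and Qars, which did not pass, differed by 0.19 and 0.10 from pre-B cells.

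Of 10 measured folate and glycine genes, 6 rose against pre-B cells and 0 fell, with a median of 0.64. Gcsh, of the glycine cleavage system, rose by 1.47 (SE 0.16, limma adjusted p = 3.47e-07). Shmt1 and Mthfd1, the cytosolic counterparts of the mitochondrial route, rose by 1.44 (SE 0.24, limma adjusted p = 0.000108) and 1.27 (SE 0.15, limma adjusted p = 9.77e-07). Both also rose against pro-B cells, by 1.13 (SE 0.31, limma adjusted p = 0.0191) and 0.53 (SE 0.17, limma adjusted p = 0.0338), as 2 of the 10. The Shmt1 call held in 20 of 20 alternatives against pre-B and 13 of 18 against pro-B cells, and the Mthfd1 call in 20 of 20 and 10 of 18. Dld and Tyms differed by 0.29 and 0.32 from pre-B cells and did not pass. From normal pro-B to pre-B cells the median difference of the 10 was -0.28, against 0.11 over all genes. Mthfd1l and Mthfd2l were not analysed here.

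The 17 measured targets of ATF4 and the integrated stress response did not move together. Against pre-B cells 1 rose, Aldh18a1 (proline synthesis), by 1.08 (SE 0.16, limma adjusted p = 2.5e-05), with all 16 leukemic arrays above all pre-B arrays. Ppp1r15a (GADD34, which returns eIF2 to its active form) fell by 1.76 (SE 0.35, limma adjusted p = 0.000779), and its pre-B values were spread widely (SD 1.33, n = 8). Chac1 differed by 1.20 (limma adjusted p = 0.0769), with leukemic arrays at 4.52 ± 1.36 (SD, n = 16), and Ddit4 and Cebpg by 0.49 and -0.33 without passing. The list median was 0.14.

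Against pro-B cells 2 targets rose and 2 fell, with a median of 0.33. Ddit4, an inhibitor of mTORC1, rose by 1.21 (SE 0.27, limma adjusted p = 0.00391), and Eif4ebp1, a brake on cap-dependent translation, by 0.97 (SE 0.29, limma adjusted p = 0.03). Jdp2 fell by 1.86 (SE 0.64, limma adjusted p = 0.0493), a call kept in 4 of 17 alternatives, with the sign turned in 1, and lost without any 1 pro-B array. Ppp1r15a fell by 0.74 (SE 0.23, limma adjusted p = 0.0343), kept in 10 of 18.

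Of 9 amino acid transporters, Slc7a5, the large neutral amino acid carrier, rose by 1.89 (SE 0.20, limma adjusted p = 1.87e-07) against pre-B cells, from 7.72 ± 0.37 (SD, n = 8) to 9.61 ± 0.50 (SD, n = 16). It had fallen by 1.59 from pro-B to pre-B cells (limma adjusted p = 2.97e-05), and its leukemic level differed from the pro-B level by 0.30 (limma adjusted p = 0.3). Slc1a5, a glutamine carrier, fell by 1.15 against pre-B cells (SE 0.38, limma adjusted p = 0.0388), a call kept in 9 of 20 alternatives and lost without any one of pre-B arrays 1, 2, 3, 4, 6 and 8 or leukemic arrays 116 and 122. Slc1a4 differed by 1.28 (limma adjusted p = 0.0638) and the cystine transporter Slc7a11, at 4.09 ± 0.53 (SD, n = 16), lay near the dim limit. Slc3a2 and Slc38a2 differed by 0.50 and -0.09 without passing. Against pro-B cells 1 of 9 rose, Slc7a1, a cationic amino acid carrier whose level of 3.47 was below the dim limit.

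Of 6 aspartate, asparagine and glutamine genes 1 rose against pre-B cells, Got2 (mitochondrial aspartate aminotransferase), by 0.51 (SE 0.13, limma adjusted p = 0.00792). Glul, glutamine synthetase, differed by -0.22 and Glud1 by 0.35. Of 9 sulfur amino acid and glutathione genes 0 rose and 1 fell, Gclc (first step of glutathione synthesis), by 1.02 (SE 0.30, limma adjusted p = 0.0172). Cbs, the enzyme just before Cth, differed by -0.22 from pre-B cells (limma adjusted p = 0.578) and by 0.34 from pro-B cells (limma adjusted p = 0.233). None of these 15 genes passed against pro-B cells.

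Of 12 measured eIF2 genes, 3 rose against pre-B cells: Impact by 0.61 (limma adjusted p = 0.0487, kept in 7 of 20 alternatives and lost without leukemic array 122, A46 and 17, or any 1 pre-B array but the fifth), Eif2b1 by 0.46 (limma adjusted p = 0.0225, lost without pre-B array 1, 6 or 7) and Eif2s2 by 0.45 (limma adjusted p = 0.00033). Eif2ak3 (PERK, the eIF2 kinase of the endoplasmic reticulum) fell by 0.86 (SE 0.17, limma adjusted p = 0.00083). None of the 12 passed against pro-B cells.

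Of 14 unfolded protein response genes, 6 fell against pro-B cells, 0 rose and 8 did not pass, with a median of -0.47, where 7.63% of all genes were called lower. Xbp1, its main transcription factor, fell by 1.74 (SE 0.31, limma adjusted p = 0.000492), Dnajb9 by 0.85 (SE 0.19, limma adjusted p = 0.00506) and Creld2 by 0.71 (SE 0.18, limma adjusted p = 0.0124). Beside this, 3 of 6 plasma cell markers, Xbp1 being one of them, fell and 6 of 6 plasmacytoid dendritic cell markers fell, and their part was not tested. Against pre-B cells Sdf2l1 rose by 1.29 (SE 0.21, limma adjusted p = 8.82e-05), Herpud1 fell by 1.12 (SE 0.20, limma adjusted p = 0.000276) and Dnajb9 fell by 0.92 (SE 0.20, limma adjusted p = 0.00188), with a list median of -0.06. The chaperones Calr and Hspa5 differed by 0.16 and 0.17 from pre-B cells, without passing.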

How the data were processed

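The deposited values were intensities from the Affymetrix scanner, per the labels summarised by RMA (submitters' processing notes, version not given). Whether all 39 arrays were normalized together is not given in the sources used here. Array medians after log2 ran from 6.36 to 6.76. Log2 was taken without an offset. Of 22690 probe sets, 64 controls, 691 with several symbols and 1555 with none were left out. The other 20380 measured 12393 genes, and a gene with several was represented by the brightest on average. Groups were compared with limma 3.58.1 in R 4.3.3 (lmFit, eBayes with trend, Benjamini-Hochberg over all genes, threshold 0.05), which recovered known changes in simulated data. The simulation gave both groups the spread of the pre-B arrays and no run effect, so it does not cover the leukemic fits. The 4 normal stages were fitted together. The 16 leukemic arrays were fitted with pre-B or pro-B arrays. Correlations used scipy 1.17.1. All 10 genes are named. Of each pathway list the text names up to 3 genes called in each direction and up to 2 uncalled genes of highest mean, and it names fixed paralogs, Slc7a11 and the 5 genes most like Asns. Chac1 and Kmt2a are outside this rule and were added after their values were seen. The genes and lists were chosen with earlier results of these data known. The number of arrays limits the precision.

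Alternatives covered normalization, dim genes, probe sets, accession run, and single arrays. Marker lists held B-lineage, myeloid, T and NK, plasmacytoid dendritic, erythroid, plasma cell and proliferation genes. Of measured markers in leukemic against pre-B cells, 1 B-lineage gene rose, and 3 of 9 B-lineage, 5 of 11 myeloid, 2 of 9 T and NK, 3 of 6 plasmacytoid dendritic, 2 of 6 erythroid, 2 of 6 plasma cell and 3 of 11 proliferation genes fell. Fits of the normal stages and of pIpC within 1 run, and fits without array 122 or without A46 and 17, were added after the values were seen.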

Additional observations from a re-analysis of the deposited data

Results flagged for a closer look

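Both values concern Shmt2, and both are low single arrays. Pre-B array 7 was at 6.25, with the nearest other pre-B array at 7.49, and immature B array 4 was at 6.78, with the nearest at 8.19. Each lay farther from its group than Dixon's 95% limit allows. In some other Shmt2 probe sets another pre-B array was lowest, while immature B array 4 was lowest in all of them. Over all genes, pre-B array 7 and immature B array 4 were also the arrays least like the rest of their groups (r = 0.976 and 0.967). Among 40 groups of values tested there were 2 such arrays, and chance gives about 1 in 20. Without pre-B array 7 or immature B array 4 no call for Shmt2 changed.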

How the results depend on the processing

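No called difference of the 10 genes changed sign in the alternatives run. Of the called pathway genes named, Jdp2 did: it was -1.86 against pro-B cells and 0.34 in 1 alternative. The count of the 10 genes called from pro-B to pre-B was 4. It was 2 with all 39 arrays in 1 fit, 1 within run 1 and 2 within run 2, and 3 to 5 when single arrays were left out. From pre-B to immature B it was 3, with 5 when accession run was a covariate (Ddit3 and Atf4 added, both higher). It was 1 within run 2, and 2 to 4 without single arrays. From immature to mature B it was 1, with 2 when run was a covariate, 0 with the mean of all probe sets, with probe sets that can share probes left out, and within run 2, and 0 to 2 without single arrays. Pathway genes called against pre-B cells numbered 29, and 23 to 30 without single arrays. Against pro-B cells they numbered 13, with 32 when run was a covariate, 2 within run 1, 7 within run 2 and 5 to 17 without single pro-B arrays (5 without pro-B 2, 7 without pro-B 4 or 6) and 18 without leukemic array 122. Genes related to Asns numbered 1, with 3 for the mean of all probe sets and 2 with run means removed or without leukemic array 116, Trib3 being added each time. The causes were not tested. The pIpC count was 0 in all 16 alternatives.

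Whether replicate numbers pair the samples was not settled. Correlations of same-numbered arrays, with group means removed, ran from -0.74 to 0.66. The lowest values, -0.74 and -0.58, were those of number 4, whose arrays lay in different runs. Within the same run they ran from -0.45 to 0.66. With the replicate number as a block the counts were 5, 3 and 0 for the 3 normal steps. Near the dim limit, Trib3 and normal Cth levels are limited by background, and 31 of 39 arrays reached it for each.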
